A study of Mus musculus with 6 samples.

Results

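Cells read oxygen with a small set of proteins, and 10 genes that encode it were followed in mouse colon tumor cells, of the 22880 genes in the deposited table. They were chosen by function, but with earlier results of these data known. They comprised the HIF alpha subunits Hif1a and Epas1, their partners Arnt and Arnt2, the prolyl hydroxylases Egln1, Egln2 and Egln3, the asparaginyl hydroxylase Hif1an, the ubiquitin ligase receptor Vhl, and Cited2. The study asked how lowering HIF-1α in the tumor cells changes colorectal tumor growth. RNA was sequenced from 3 Mock libraries and 3 HIF-1α-KD libraries of MC-38 cells, a colon adenocarcinoma line of the C57BL/6 mouse that carried GFP. By their labels, both groups had been transduced with pLKO.1-puro, with a mock knockdown or a knockdown of HIF-1α, and in vivo passaging is given as no for both. The cells had been grown in the cecum wall of C57BL/6J mice and sorted as GFP-positive cells without CD45 and CD31. The host's own cells were not transduced, and whether the knockdown cells were a pool or a single clone was not given in the sources used here. The ages of the mice were not given in the sources used here. The labels do not say whether the libraries came from separate animals, so that p-values measure the spread between these libraries, which may be technical.

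HIF is a transcription factor made of an oxygen-sensitive alpha subunit and a stable beta subunit. In oxygen, the prolyl hydroxylases mark the alpha subunit, Vhl binds the mark and the subunit is degraded, while Hif1an blocks its contact with coactivators. In hypoxia the alpha subunit accumulates, pairs with ARNT and turns on genes of glycolysis, pH control and angiogenesis, among them its own hydroxylases Egln1 and Egln3, which closes a feedback loop. Solid tumors such as those of the colon commonly contain hypoxic areas in which this pathway is active.

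The promoters of the 3 prolyl hydroxylases are shown first, because Egln1 had the lowest p of the members and Egln2 and Egln3 are its paralogs. The letters ACGTG and GCGTG, the core that HIF binds, were searched on both strands in the 250 bases before each start site of the RefSeq annotation (GRCm38.p6), and each match is in capitals. Among 32851 promoters, 38.6% held either form, 16.6% held ACGTG and 28.2% held GCGTG. Of the members, 9 had an entry, and 6 of these held a match (Hif1a, Arnt, Egln1, Egln2, Egln3 and Cited2), whereas Arnt2, Hif1an and Vhl held none. Epas1 had no entry. In Hif1a and Cited2, the letters CACGTG gave a match on each strand at the same place. All 3 genes shown are on the minus strand, and their sequences read 5′ to 3′ along the gene.
Egln1, chr8:124949325-124949504: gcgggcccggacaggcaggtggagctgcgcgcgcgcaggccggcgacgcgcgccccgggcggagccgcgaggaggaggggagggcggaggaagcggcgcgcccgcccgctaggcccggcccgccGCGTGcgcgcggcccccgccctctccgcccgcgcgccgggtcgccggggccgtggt
Egln2, chr7:27166803-27167052: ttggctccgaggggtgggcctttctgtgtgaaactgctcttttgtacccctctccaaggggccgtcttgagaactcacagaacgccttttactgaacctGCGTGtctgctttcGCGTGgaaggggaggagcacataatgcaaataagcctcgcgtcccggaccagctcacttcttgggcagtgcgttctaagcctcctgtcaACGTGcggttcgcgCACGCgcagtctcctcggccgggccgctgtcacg
Egln3, chr12:54203875-54204124: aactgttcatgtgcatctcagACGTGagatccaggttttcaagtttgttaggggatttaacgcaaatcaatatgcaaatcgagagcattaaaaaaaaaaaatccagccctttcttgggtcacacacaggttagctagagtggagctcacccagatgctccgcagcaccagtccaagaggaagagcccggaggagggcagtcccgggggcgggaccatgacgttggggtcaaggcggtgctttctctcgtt
The Egln1 promoter held GCGTG 126 bases before the start site and ACGTG 68 bases before it. The latter lies in a stretch annotated as exon, so only the 180 bases outside exons are given. Egln2 has 2 start sites in this annotation, and the window shown, that of the upstream site, held 4 matches, at 151, 137, 48 and 34 bases before the start site, the last of them as CACGC, the opposite strand of GCGTG. The window of the other start site (chr7:27165729-27165978), not shown, held GCGTG at 116 bases before it. The Egln3 window held 1 match, 229 bases before the start site. A match is a description of the letters and does not show that HIF binds there.

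The 6 libraries held between 19845838 and 30809238 reads on genes, and the value given below is the normalized count, the reads of a gene divided by a factor of its library, unless FPKM is named. FPKM divides further by gene length and is used to compare genes with each other. After removal of genes with few reads 12014 genes were tested, and all 10 members were among them. On the first principal component, with 38.7% of the variance, HIF-1α-KD 1 stood at 56.5 and Mock 1 at -39.8, while the other 4 libraries stood between -13.7 and 10.7. Of 10 colon epithelial markers 4 (Epcam, Vil1, Cdx2 and Cldn7) were below 1 FPKM in every library, and the summed level of all 10 was 2.30 to 19.6 FPKM in Mock cells and 2.31 to 4.65 FPKM in the knockdown libraries. Of 10 endothelial markers 6 were below 1 FPKM in all libraries, and the sum of all 10 was 11.5 to 14.4 FPKM in Mock cells and 11.4 to 14.98 FPKM in the knockdown libraries. Within this list Cdh5 was lower without overlap (log2 fold change -0.84, unadjusted p = 0.013, adjusted p = 0.294, limma), while the other 4 tested had log2 fold changes of 0.12 (Egfl7) to 1.26 (Tek), all with overlap. The sum of 10 leukocyte markers was 108 to 119 FPKM in Mock cells and 72.8 to 374 FPKM in the knockdown libraries, with the highest level in HIF-1α-KD 3, where Lyz2 reached 295 FPKM against 54.5 to 80.6 FPKM in the other 5. The summed level of 10 fibroblast and pericyte markers, of which Col3a1 was the largest part, was 1946 to 3672 FPKM in Mock cells and 4609 to 5239 FPKM in the knockdown libraries, with Col3a1 at 1400 to 3109 FPKM and 4184 to 4603 FPKM. Of 9 tested, 4 (Col3a1, Cspg4, Rgs5 and Pdgfrb) were higher at an unadjusted p under 0.05, against 7.04% of all genes. Col3a1, Cspg4 and Rgs5 did not overlap between the groups, where 10.4% of all genes were higher without overlap. The groups overlapped for Pdgfrb and for the other 5 (Dcn, Lum, Acta2, Pdgfra and Fap), whose log2 fold changes were -0.38 to 0.33. No marker of the 4 lists was at 0 in all libraries. The part of these markers in the results was not tested.

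At an adjusted p under 0.05, 1 of the 10 genes, Egln1, was lower after the knockdown and no member was higher, where 0.383% of all tested genes were lower and 0.00832% higher at this limit (limma, Benjamini-Hochberg). By edgeR and DESeq2, too, 1 member was lower and 0 were higher, where 47 and 187 of all genes were lower and 0 and 96 higher. At an unadjusted p under 0.05, 4 members were lower (Hif1a, Egln1, Egln3 and Cited2), against 5.69% of all genes, and Epas1 was higher, against 7.04%. At this limit edgeR gave 3 lower and 0 higher members (761 and 732 over all genes), and DESeq2 gave 4 lower and 0 higher (743 and 814 over all genes). In 5 members no library of one group came within the range of the other group, as in 19.2% of all genes. Among them, 4 (Hif1a, Egln1, Egln3 and Vhl) were lower in all 3 knockdown libraries, as were 8.75% of all genes, and Epas1 was higher, as were 10.4%. The median log2 fold change was -0.20 over the 10 members and 0.02 over all genes.

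**Figure D1:**
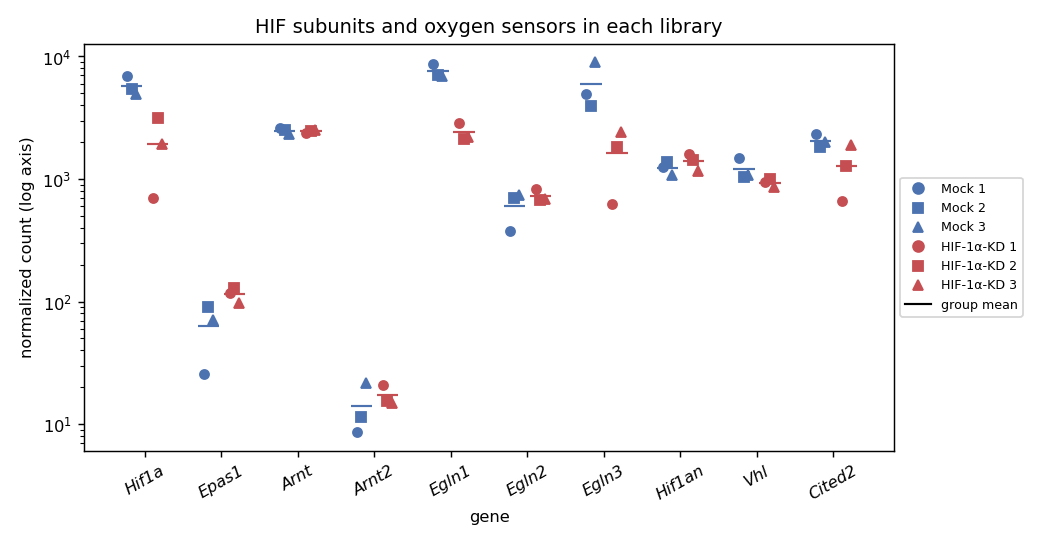
Normalized count of each gene (log axis) in the 3 Mock libraries (blue) and the 3 HIF-1α-KD libraries (red), with a line at each group mean. The groups are apart for Hif1a, Egln1, Egln3, Vhl and Epas1 and overlap for Arnt, Arnt2, Egln2, Hif1an and Cited2.

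Hif1a, the targeted alpha subunit (chr12:73901375-73947530 on the plus strand of GRCm38), was lower in every HIF-1α-KD library, but to an unequal extent. Its normalized count was 6914, 5424 and 4945 in Mock 1 to 3 and 697, 3142 and 1928 in HIF-1α-KD 1 to 3. The groups did not overlap, and HIF-1α-KD 1 was far below the other knockdown libraries. The remaining level was 12.1%, 54.5% and 33.5% of the Mock mean. The log2 fold change was -1.82 ± 0.46 (SE, n = 3 and 3, 95% interval -2.87 to -0.77), with an unadjusted p of 0.0036 and an adjusted p of 0.219 by limma. Without HIF-1α-KD 1 the log2 fold change was -1.21. The ratio of the highest to the lowest library, each plus 1, was 4.50 within HIF-1α-KD, wider than for 95.4% of tested genes, and 1.40 within Mock, near the 1.39 of the median gene. In these sorted but bulk samples, fewer cells with the transcript and less transcript per cell cannot be told apart. The antisense gene Gm15283 and the gene Gm49321 overlap Hif1a in the annotation, and whether strand was used in counting was not given in the sources used here.

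Epas1, which encodes HIF-2α, the other oxygen-labile alpha subunit, was nearly silent in these cells and higher after the knockdown. It had 21, 95 and 59 reads in Mock 1 to 3 and 146, 108 and 84 reads in HIF-1α-KD 1 to 3. As normalized counts these were 25.9, 90.9 and 71.3 in Mock cells and 117, 130 and 97.0 in the knockdown libraries. The groups did not overlap, although Mock 2 and HIF-1α-KD 3 were close, and Mock 1 was the lowest by far, with an exact Poisson interval of 13.0 to 32.1 for its 21 reads, which covers counting error only. For Epas1 the log2 fold change was 1.03 ± 0.45 (SE, 95% interval 0.00 to 2.06), with an unadjusted p of 0.0498 and an adjusted p of 0.393 by limma. Without Mock 1 it was 0.49 and the unadjusted p was 0.128. Removal of any other single library except Mock 2 also raised the unadjusted p above 0.05, to between 0.053 and 0.117. The pericyte markers Rgs5 (16.0, 30.6 and 27.8 in Mock, 66.8, 40.8 and 58.9 after the knockdown) and Cspg4 (300.4, 702 and 1417 in Mock, 2032, 1905 and 1489 after the knockdown) were, like Epas1, lowest in Mock 1 and higher in all HIF-1α-KD libraries. So was Col3a1 of the same marker list, whereas Pdgfrb, Dcn, Lum, Acta2, Pdgfra and Fap overlapped between the groups. What these markers contribute to the Epas1 level was not tested.

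Per length, Epas1 was a small part of the alpha subunit transcripts in every library. It made up 0.170%, 0.755% and 0.650% of the summed Hif1a and Epas1 FPKM in Mock 1 to 3, and 7.10%, 1.84% and 2.23% in HIF-1α-KD 1 to 3. The mean share was 0.525% ± 0.312 in Mock cells and 3.72% ± 2.93 in HIF-1α-KD cells (SD, n = 3 and 3). The difference in means was 3.20 percentage points, and 1.51 without HIF-1α-KD 1, the library with the least Hif1a. All HIF-1α-KD libraries were above all Mock libraries. Since Hif1a, the knocked-down gene, is nearly all of the denominator, the share also depends on the knockdown itself, and it is not a separate result about Epas1. The summed FPKM of both subunits was 80.9 to 112 in Mock cells and 12.6 to 55.8 in the knockdown libraries.

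Both beta subunits had overlapping groups. Arnt, the constitutive partner of both alpha subunits, had counts of 2604, 2525 and 2334 in Mock cells and 2375, 2466 and 2490 in the knockdown libraries. The log2 fold change was -0.02 with a 95% interval of -0.31 to 0.26 (SE 0.13, adjusted p = 0.950, limma), and its sign was positive when only library size was used for scaling. The spread of Arnt over the HIF-1α-KD libraries was among the narrowest of all genes, with a ratio of highest to lowest of 1.05, narrower than in all but 2.50% of genes. Arnt2, the neural paralog, was at the edge of detection with 7, 12 and 18 reads in Mock cells and 26, 13 and 13 reads in the knockdown libraries. This was a log2 fold change of 0.36 with a 95% interval of -0.79 to 1.52 (adjusted p = 0.804, limma), and the groups overlapped. The FPKM of Hif1a per FPKM of Arnt was 2.58, 2.09 and 2.06 in Mock cells and 0.285, 1.24 and 0.752 in the knockdown libraries, which restates the lower Hif1a beside an Arnt of similar level.

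Among the prolyl hydroxylases, Egln1 fell and did so evenly. Egln1 encodes PHD2, the main oxygen sensor that sets HIF-1α in normal oxygen, and lies at chr8:124908587-124949324 on the minus strand (GRCm38). Its normalized count was 8615, 7028 and 6992 in Mock cells and 2871, 2137 and 2219 in the knockdown libraries. The groups were far apart, and the HIF-1α-KD libraries kept 38.1%, 28.3% and 29.4% of the Mock mean. The log2 fold change was -1.65 ± 0.16 (SE, n = 3 and 3, 95% interval -2.03 to -1.28, adjusted p = 0.0205, limma), and Egln1 ranked 2 of the 12014 genes by p. It was between -1.79 and -1.55 when any 1 library was left out, but the adjusted p was 0.0509 without Mock 1, 0.0898 without Mock 3 and 0.0601 without HIF-1α-KD 2.

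Egln3, which encodes PHD3, the hydroxylase most strongly induced by hypoxia in many cells, was lower in every knockdown library but varied widely. Its normalized count was 4965, 3933 and 8938 in Mock cells and 627, 1842 and 2419 in the knockdown libraries. The groups did not overlap, Mock 3 was the highest and HIF-1α-KD 1 the lowest of the 6. By limma the log2 fold change was -1.99 ± 0.48 (SE, 95% interval -3.09 to -0.89), with an unadjusted p of 0.00285 and an adjusted p of 0.210, and it was -1.40 without HIF-1α-KD 1. Mock 3 also held the most transcript of the epithelial keratin Krt8, with a normalized count of 191 against 6.16 to 32.2 in the other libraries, and the part of this in the Egln3 value was not tested.

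Egln2, which encodes PHD1, did not differ beyond the spread of its libraries. Its normalized count was 378, 704 and 737 in Mock cells and 836, 670 and 693 in the knockdown libraries. The groups overlapped, with Mock 1 alone below the rest. For Egln2 the log2 fold change was 0.33 with a 95% interval of -0.27 to 0.93 (SE 0.26, adjusted p = 0.640, limma), and it was 0.02 without Mock 1. Cyp2t4, which lies on the opposite strand within the Egln2 region, had no reads in any library.

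As a pool, the prolyl hydroxylase transcripts were lower in every knockdown library and held a larger share of Egln2. The summed FPKM of Egln1, Egln2 and Egln3 was 181, 169 and 234 in Mock cells and 70.8, 78.3 and 89.5 in the knockdown libraries, without overlap (exact two-sided permutation test, p = 0.1, the smallest that 3 against 3 allows). Egln2 made up 6.86%, 14.6% and 10.4% of this pool in Mock cells and 40.1%, 30.2% and 27.5% in the knockdown libraries, again without overlap. This share depends on the lower Egln1 and Egln3 values in its denominator and is not a separate result about Egln2. The share of Egln1 was 33.3% to 52.8% in Mock cells and 29.7% to 46.5% in the knockdown libraries, and that of Egln3 was 36.4% to 56.3% and 13.4% to 42.9%, so that both overlapped. Relative to the alpha subunits, the pool was 1.61, 1.79 and 2.89 FPKM per FPKM of Hif1a plus Epas1 in Mock cells and 5.63, 1.40 and 2.59 in the knockdown libraries. This ratio overlapped between the groups (exact permutation test, p = 0.7), and HIF-1α-KD 1 alone was above all other libraries.

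**Figure D2:**
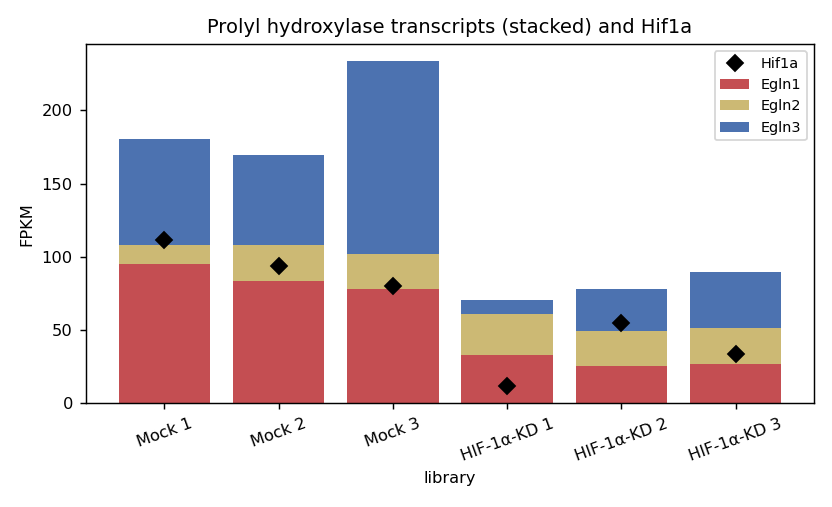
FPKM of Egln1, Egln2 and Egln3, stacked for each library, with the FPKM of Hif1a as a black diamond. The stack reaches 169 to 234 FPKM in Mock cells and 70.8 to 89.5 FPKM in the knockdown libraries, while the Hif1a diamond ranges from 11.7 to 54.8 FPKM among the latter.

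Hif1an, which encodes FIH, the hydroxylase that blocks the binding of p300 to the alpha subunit, did not differ beyond the spread of its libraries either. Its normalized count was 1256, 1381 and 1087 in Mock cells and 1616, 1420 and 1169 in the knockdown libraries, and these overlapped. This gave a log2 fold change of 0.17 with a 95% interval of -0.22 to 0.56 (SE 0.17, adjusted p = 0.723, limma), and it was 0.061 without HIF-1α-KD 1, 0.077 without Mock 3 and 0.29 without HIF-1α-KD 3. Vhl, the substrate receptor that binds hydroxylated alpha subunits, had counts of 1499, 1047 and 1086 in Mock cells and 939, 993 and 854 in the knockdown libraries. These did not overlap, but the gap between Mock 2 and HIF-1α-KD 2 was small. The log2 fold change of Vhl was -0.37 with a 95% interval of -0.77 to 0.04 (SE 0.18, unadjusted p = 0.0727, adjusted p = 0.443, limma), and it was -0.20 without Mock 1, the highest library.

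Cited2, a HIF-inducible protein that competes with the alpha subunits for the coactivator p300, was below the Mock range in only 2 of the 3 HIF-1α-KD libraries. Its normalized count was 2350, 1839 and 1993 in Mock cells and 658, 1270 and 1898 in the knockdown libraries. HIF-1α-KD 1 and 2 were below all Mock libraries, whereas HIF-1α-KD 3 lay within the Mock range. Over all libraries the log2 fold change was -0.81 ± 0.34 (SE, 95% interval -1.58 to -0.05), with an unadjusted p of 0.0391 and an adjusted p of 0.381 by limma. It was -0.40 (unadjusted p = 0.0937) without HIF-1α-KD 1 and -1.16 (unadjusted p = 0.0029) without HIF-1α-KD 3. The unadjusted p was also above 0.05 without Mock 1 (0.113), Mock 2 (0.0628), Mock 3 (0.0771) or HIF-1α-KD 2 (0.0522), by edgeR (0.0582) and with library size scaling (0.0579). HIF-1α-KD 3 was also the library with the highest sum of leukocyte markers, although Cd79a of that list was lower there than in every other library. What these markers contribute to the Cited2 level of HIF-1α-KD 3 was not tested.

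**Figure D3:**
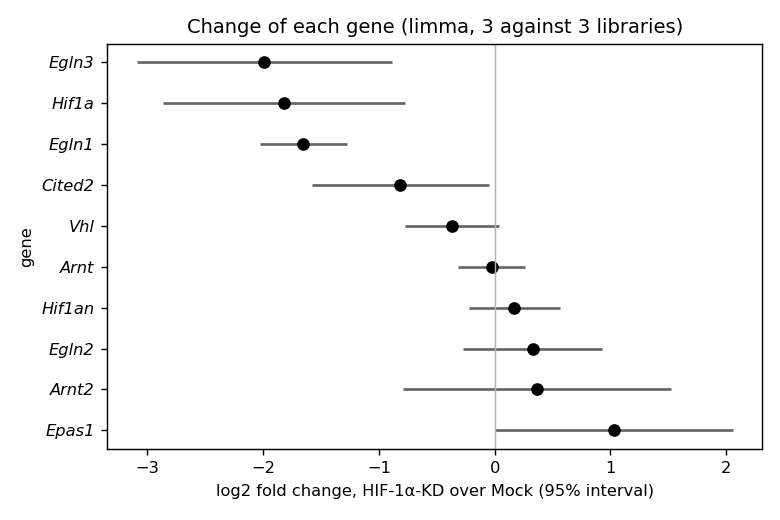
Log2 fold change of HIF-1α-KD over Mock for each gene, with its 95% interval from limma over 3 and 3 libraries. The interval is narrow for Egln1 (-2.03 to -1.28), wide for Egln3 and Hif1a, and includes 0 for Vhl, Arnt, Hif1an, Egln2 and Arnt2.

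Ordered by FPKM, the Mock cells held Hif1a (95.3 ± 15.8, SD), Egln3 (88.6 ± 37.6) and Egln1 (85.4 ± 9.04) at the top, and these neighbours overlapped. A second step held Arnt (42.5 ± 3.06), Cited2 (41.7 ± 4.21) and Vhl (38.3 ± 7.07), which overlapped each other and were below Egln1 in all libraries. Egln2 (20.4 ± 6.97) and Hif1an (14.1 ± 2.12) followed, then Epas1 (0.476 ± 0.265) and Arnt2 (0.0927 ± 0.0444). Hif1a was thus at percentile 89.6 of tested genes in Mock cells and Epas1 at percentile 5.39. In HIF-1α-KD cells the steps merged, since Arnt was first (43.4 ± 2.11 FPKM) and the means of Hif1a (33.4 ± 21.6), Vhl (30.6 ± 2.32), Egln1 (28.3 ± 4.01), Cited2 (27.1 ± 13.6), Egln3 (25.6 ± 14.7) and Egln2 (25.5 ± 2.48) came within the spread of their neighbours. Hif1an (16.4 ± 2.29), Epas1 (0.896 ± 0.127) and Arnt2 (0.119 ± 0.0193) stayed the last 3 in the order, each apart from the next.

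**Figure D4:**
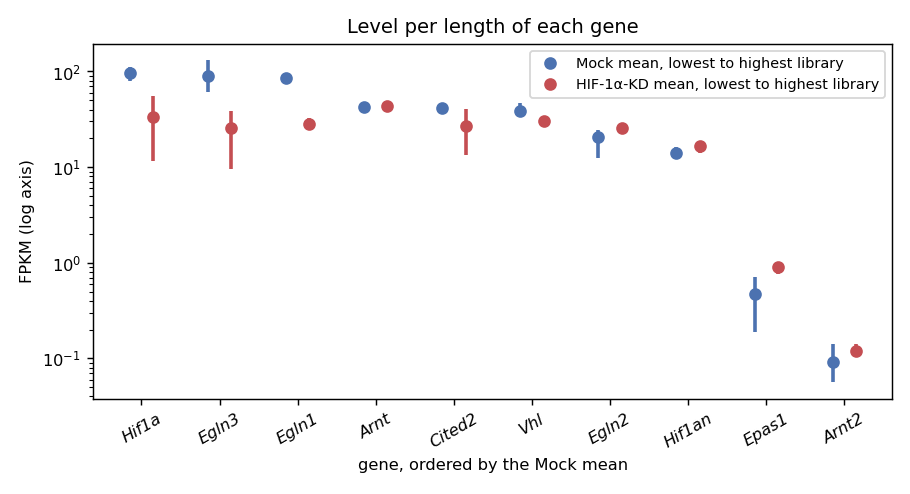
FPKM of each gene (log axis), with the mean as a point and a line from the lowest to the highest library, for Mock (blue) and HIF-1α-KD cells (red). In Mock cells Hif1a, Egln3 and Egln1 are together above the rest, and in HIF-1α-KD cells they lie among the 7 genes with means of 25.5 to 43.4 FPKM.

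The remaining Hif1a level was then followed across the knockdown libraries, where it was lowest in HIF-1α-KD 1, then 3, then 2. None of the 9 other members had the libraries in this order, which 16.8% of all tested genes had. HIF-1α-KD 1 was the lowest library for 3 of the 9 (Arnt, Egln3 and Cited2), against 38.7% of all genes, and the highest of the 3 for Egln1, Egln2, Hif1an and Arnt2. Egln3 was at 10.5% of the Mock mean in HIF-1α-KD 1, and at 31.0% and 40.7% in HIF-1α-KD 2 and 3. Cited2 was at 31.9%, 61.6% and 92.1% in the same libraries. Egln1, in contrast, had its highest remaining level of 38.1% in HIF-1α-KD 1, the library with the least Hif1a. With 3 libraries no test of an association between these levels was made.

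The ratio of the highest to the lowest HIF-1α-KD library separated the genes further. It was 3.86 for Egln3 and 2.88 for Cited2, above 94.4% and 91.6% of all genes, and 1.34 for Egln1, close to the 1.33 of the median gene. Vhl had a ratio of 1.16 and Egln2 of 1.25. In the Mock libraries the widest members were Epas1 with 3.42, Arnt2 with 2.37 and Egln3 with 2.27, and Hif1a was not among them.

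As a readout of HIF-1 activity, 15 target genes outside the member list were followed. All 15 were lower at an unadjusted p under 0.05 and 10 were lower at an adjusted p under 0.05, against 5.69% and 0.383% of all genes, with a median log2 fold change of -1.57 against 0.02 for all genes (limma). The count at an adjusted p was 2 without Mock 1, 4 without Mock 2, 0 without Mock 3 or HIF-1α-KD 2, and 2 without HIF-1α-KD 3. The libraries did not overlap for 13 of them, against 8.75% of all genes that were lower without overlap, the exceptions being Adm, the vasodilator peptide adrenomedullin, and P4ha1, a collagen prolyl hydroxylase. The change was steepest for Car9, a carbonic anhydrase of pH control (4470, 3382 and 4356 in Mock, 212, 663 and 1041 in the knockdown libraries, log2 fold change -2.93, adjusted p = 0.0553), and Bnip3, a mitophagy receptor (12980, 7365 and 7747 in Mock, 1088, 1421 and 1753 in the knockdown libraries, log2 fold change -2.70, adjusted p = 0.0205, limma).

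The ratio of the highest to the lowest HIF-1α-KD library was no wider than that of Egln1 for 9 of the 15 target genes. Over all tested genes, 52.7% had a ratio below that of Egln1. Among the target genes it was 1.995 for Kdm3a, a histone demethylase, 2.40 for Ankrd37, 4.89 for Car9 and 5.29 for Adm. The summed FPKM of all 15 was 5564 to 7326 in Mock cells and 2460 to 2572 in the HIF-1α-KD libraries. Pgk1, a glycolytic kinase, had 31.7%, 35.5% and 32.4% of its Mock mean left in HIF-1α-KD 1 to 3, and Pdk1, which restrains pyruvate entry into mitochondria, had 25.1%, 38.7% and 37.3%. Ldha, which makes lactate, had 50.9%, 40.4% and 44.2%. Vegfa, the main angiogenic growth factor, had the mildest change of the list, with 2232, 2102 and 2240 in Mock cells and 1649, 1752 and 1562 in the knockdown libraries (log2 fold change -0.41, adjusted p = 0.294, limma). Slc2a1, the glucose transporter GLUT1, had 24.9%, 24.2% and 32.4% of its Mock mean left, and Ndrg1, a stress-induced gene, had 36.2%, 35.2% and 27.2%. Ero1l, an oxidase of protein folding, had 21.3%, 25.6% and 26.2%, and Higd1a, a mitochondrial protein, had 32.9%, 42.1% and 41.6%. Mxi1, a MAX partner that opposes MYC, had 46.8%, 36.2% and 36.5%. Less even were Ankrd37, with 20.8%, 9.07% and 21.9%, and Kdm3a, with 43.1%, 54.4% and 86.0%. Adm had 57.7%, 8.89% and 22.8%, at 3.60 to 23.3 normalized counts in these libraries, and P4ha1 had 68.9%, 69.0% and 76.9%. The libraries had the order of Hif1a for 3 of the 15 (Pgk1, Pdk1 and Higd1a), and HIF-1α-KD 1 was the lowest for 8. For comparison, HIF-1α-KD 1 was the lowest for 54.3% of the 46 genes lower at an adjusted p under 0.05 and for 49.2% of the 683 lower at an unadjusted p under 0.05.

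**Figure D5:**
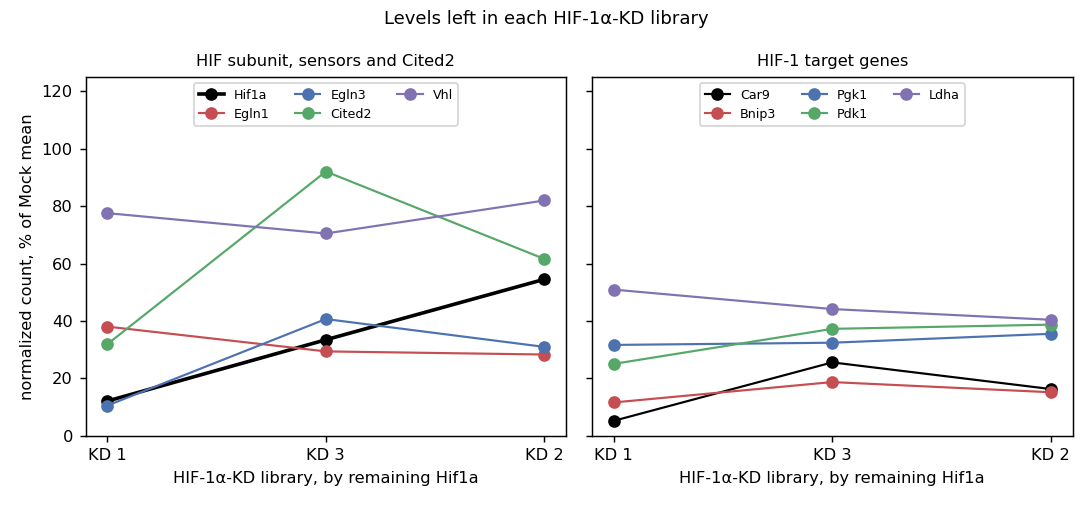
Normalized count as a percent of the Mock mean in the 3 HIF-1α-KD libraries (KD 1, KD 3 and KD 2), ordered by their remaining Hif1a, for Hif1a, Egln1, Egln3, Cited2 and Vhl (left) and for 5 HIF-1 target genes (right). Hif1a climbs from 12.1% to 54.5% while Egln1 goes from 38.1% to 28.3%, and Egln3 and Cited2 are highest in KD 3.

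The genes whose pattern over the 6 libraries was nearest to that of Hif1a, by the root mean square difference of centred log2 values, were Myo1h (0.13), Dyrk4 (0.22) and Tmem71 (0.29), where the median gene had 1.16. The counts of Myo1h were 51.7, 43.1 and 37.5 in Mock cells and 5.63, 24.0 and 17.3 in the knockdown libraries, and so shared the order of Hif1a at a low level. Nearest to Egln3 were Prl2c2 (0.27), the cytokine gene Il33 (0.29) and Cdc42ep3 (0.34). For Egln1, which was added after its values were seen, the nearest was Mxi1 (0.17), one of the 15 target genes, with 1691, 1344 and 1481 in Mock cells and 704, 544 and 550 in the knockdown libraries. Prelid2 (0.20) and Mcemp1 (0.20) followed, where the median gene had 0.90.

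Other genes that act on the alpha subunits or resemble their hydroxylases were read in the same fit. Over 6 lists with 75 tested genes, no gene passed an adjusted p under 0.05 by limma, while 8 were lower and 8 higher at an unadjusted p under 0.05, or 21.3% against 12.7% of all genes. By edgeR 1 of them (Pkm) and by DESeq2 5 of them (Alkbh5, Gnb2l1, P4ha2, Pkm and Plod2) passed the adjusted limit. Of the 12014 genes fitted, edgeR called 47 lower and 0 higher at this limit, and DESeq2 called 187 lower and 96 higher. None of the 9 tested partners of Vhl in the ubiquitin ligase passed either limit, and their median log2 fold change was -0.06. Without Mock 2, 2 of them were lower at an unadjusted p under 0.05. The smallest p in this list belonged to Ube2d3, a ubiquitin-conjugating enzyme, at a log2 fold change of -0.36 (adjusted p = 0.493, limma), followed by the prefoldin subunit Vbp1 at -0.29 and the conjugating enzyme Ube2d2a at -0.14. Of 6 tested bHLH-PAS factors, the family of HIF, 3 were higher at an unadjusted p under 0.05, against 7.04% of all genes. These were Clock (0.58), Arntl2 (0.80) and Ncoa1 (0.46, all log2 fold changes), with adjusted p-values of 0.315, 0.370 and 0.392 by limma. This count was 1 by edgeR and 1 without Mock 3 or without any of the HIF-1α-KD libraries. Hif3a, the remaining alpha subunit gene, was below 1 FPKM in all libraries and was not tested.

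Among 11 tested HIF coactivators and CITED family members, 1 was lower and 2 were higher at an unadjusted p under 0.05. Over all tested genes 5.69% were lower and 7.04% higher at this limit, the shares to set beside each count in this paragraph. Pkm, the pyruvate kinase that also acts as a HIF-1 coactivator and is itself glycolytic, had 87060, 79480 and 90630 in Mock cells and 49820, 47300 and 48950 in the knockdown libraries (log2 fold change -0.81, adjusted p = 0.0827, limma). The 2 higher genes were Ncoa2, a nuclear receptor coactivator, at 0.49 and Cdk8, the kinase of the mediator complex, at 0.39 (log2 fold changes), a count that was 0 without Mock 1 and 1 without HIF-1α-KD 1 or 2. Of 21 tested regulators of alpha subunit stability, Gnb2l1, which encodes the ribosomal scaffold RACK1, was lower at a log2 fold change of -0.56 and Sat1, a polyamine acetyltransferase, at -0.68, while Senp1, a SUMO protease, was higher at 0.45, with 0 higher genes without Mock 1, Mock 3, HIF-1α-KD 1 or HIF-1α-KD 2. The list of 13 regulators of Hif1a transcription and translation held 1 lower gene, the translation repressor Eif4ebp1 (-0.49), and 1 higher gene, the transcription factor Stat3 (0.49, log2 fold changes), at an unadjusted p under 0.05. Without Mock 1, Mock 3, HIF-1α-KD 2 or HIF-1α-KD 3 this list held 0 higher genes, without Mock 2 it held 4, and without HIF-1α-KD 2 it held 0 lower genes. Rptor, the raptor subunit of the mTOR complex, had the next p, with a log2 fold change of 0.38 (adjusted p = 0.412, limma).

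Enzymes related to the hydroxylases by their use of oxygen and, except for Ado, of 2-oxoglutarate had 4 lower and 1 higher gene among 15 tested at an unadjusted p under 0.05. Over all genes 5.69% were lower and 7.04% higher, and the median log2 fold change of the list, Ado included, was -0.09. The higher count was 2 without Mock 1 and 3 with library size scaling. Plod2, a collagen lysyl hydroxylase, had 14360, 10730 and 11590 in Mock cells and 6156, 8401 and 7404 in the knockdown libraries (log2 fold change -0.74, adjusted p = 0.190, limma). Alkbh5, an RNA demethylase, had a log2 fold change of -0.64, and P4ha2, a collagen prolyl hydroxylase, of -0.63. Jmjd6, a lysyl hydroxylase of splicing factors, had -0.54, and P3h1, a collagen prolyl 3-hydroxylase, had 0.66. Of the 15 tested genes of this list, 7 did not overlap between the groups, against 19.2% of all genes. The 5 genes named here were among them, but they had been picked by their p in the same comparison. Their adjusted p-values were between 0.190 and 0.294 (limma).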

How the data were processed

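RNA was measured in 3 Mock and 3 HIF-1α-KD libraries of sorted MC-38 tumor cells, grouped by their labels. According to the methods, libraries were made with a stranded mRNA kit, and reads were trimmed by the authors, mapped with STAR and counted with featureCounts. The submitters' processing notes name GRCm38 and edgeR, whereas the methods name a human assembly and DESeq2, and gene identifiers are from mouse. A single table with 22880 genes was used. The deposited normalized counts are a signal, each being reads divided by a factor of the library, and the authors deposited FPKM values computed from the same reads and the width of the gene. Deposited columns with the authors' log2 ratio, p-value and false discovery rate for this comparison were not used, nor was the deposited GC fraction.

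Reads recovered from the normalized counts were whole (within 0.1 read) for 100% of values up to 300 reads. Genes were kept by filterByExpr of edgeR 4.0.16 (minimum count of 10) on these reads. The main test was limma 3.58.1 on log2(normalized count + 1), fitted over 12014 genes with a trend of variance on the mean, two-sided, with adjustment by Benjamini and Hochberg. Fold changes are on this scale, where the added 1 lowers those of low genes. The log2 fold changes of the low members Epas1 and Arnt2 were nonetheless larger by limma than by edgeR (0.84 and 0.29) or DESeq2 (0.86 and 0.29). The fit was tested on simulated data with known changes. The alternatives were edgeR and DESeq2 1.42.0 on recovered reads, other scalings, filters and pseudocounts, a replicate block, and each library left out. Single values were compared with exact permutation tests, for which 3 against 3 cannot give p under 0.1. Within each group, libraries were further apart than sampling noise gives, so none was counted as a duplicate.

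The members and gene lists were chosen with earlier results of these data known. Named genes were all members, all list genes at an adjusted p under 0.05 or otherwise the 3 of lowest p per list, the 15 target genes, and the 3 genes nearest in pattern to Hif1a and to Egln3, the other member with the largest fold change. Additional genes of a list were named where a count of 5 or fewer called for it. Markers of leukocytes, endothelium, fibroblasts with pericytes and colon epithelium were set beside the results. Promoter sequences are from RefSeq (GRCm38.p6) and gene positions from GENCODE M21 (GRCm38).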

Additional observations from a re-analysis of the deposited data

How the results depend on the processing

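The number of genes at an adjusted p under 0.05 depended on the test and the libraries. By limma 46 genes were lower and 1 was higher. DESeq2 gave 187 lower and 96 higher, and edgeR gave 0 higher (732 at an unadjusted p). Leaving out 1 library gave 0 to 32 lower and 0 to 5 higher genes, and at an unadjusted p 469 to 926 higher. Of the members, 0 to 1 were then lower at an adjusted p and 0 to 1 higher at an unadjusted p. Epas1 was past the unadjusted limit by limma but by neither edgeR nor DESeq2, and not with TMM scaling, no filter or a pseudocount of 0.1 (0 members higher in each). Of the regulators 3 to 11 were higher at an unadjusted p with a library left out, 5 with TMM scaling and 14 with library size scaling. Cited2 was not past the unadjusted limit by edgeR or with library size scaling, which left 3 members lower. The log2 fold change of Arnt was -0.070 to 0.0092 with a library left out (above 0 without Mock 1) and 0.032 with library size scaling. Other scalings moved the median gene by less than 0.1.

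Without both Mock 1 and HIF-1α-KD 1, an alternative chosen after seeing the data, 27 genes were lower and 8 higher at an adjusted p, 0 members were higher at an unadjusted p, and the log2 fold change was 0.030 for Arnt, -0.047 for Arnt2, -0.080 for Egln2, -1.07 for Hif1a, -1.49 for Egln3 and -1.69 for Egln1.

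Same-numbered libraries did not deviate together (correlations -0.135, -0.117 and 0.023), so the numbers were not taken as pairs. With the replicate number as a block, limma called 0 genes lower and 0 higher at an adjusted p (607 and 717 at an unadjusted p), so that 0 members passed, 5 regulators were higher at an unadjusted p, and Egln1 lost its call at an adjusted p of 0.0514 (log2 fold change -1.65, which this block leaves the same by construction). With a library left out, Egln1 lay between -1.79 and -1.55, Arnt2 between 0.09 and 0.72 and Egln2 between 0.02 and 0.50. Egln1 stood at -1.55 (adjusted p = 0.0509) without Mock 1, -1.70 (0.0898) without Mock 3 and -1.57 (0.0601) without HIF-1α-KD 2. The cause of these shifts was not tested. Arnt2 and Epas1 had few reads, 7 to 146 per library. The exact Poisson intervals of Epas1 in Mock 1, 3 and 2 (13.0 to 32.1, 44.9 to 76.1 and 76.9 to 116) did not overlap, so its spread in Mock cells exceeded counting error.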
